A study of Mus musculus with 6 samples.

Results

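Axon guidance genes encode secreted or membrane-bound ligands and the receptors that read them. The genes described here are the protein-coding mouse genes of the semaphorin classes 3 to 7, the plexins, the ephrins and Eph receptors, the Slits and Robos, and the netrins with their Unc5 receptors, chosen by gene symbol. Of 66 genes with such a symbol, 57 had at least 10 raw counts in 3 or more of the 6 libraries and are called members below, out of 17156 genes in the whole data set that met the same count rule. All 57 also passed the filter of the test. Efnb3 and Epha6 met the count rule only through the libraries labelled KO, since 1 library labelled CTRL reached 10 counts in each, so the sign of both was tied to how they were kept.

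RNA was sequenced from glomeruli, the filtering units of the kidney, isolated from 3-week-old mice. The 3 libraries labelled KO carry the genotype bPIX -/-, with loss of bPIX restricted to podocytes, and the 3 libraries labelled CTRL carry a wild type genotype. Arhgef7 encodes bPIX, and podocytes are the cells whose foot processes cover the glomerular capillaries. The sources used here do not state the promoter that drives the deletion, the sex or the strain. Each library is described as 1 mouse. Single values are listed in the order 146, 147 and 148 for the libraries labelled KO, and 157, 162 and 163 for those labelled CTRL.

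Semaphorins signal through plexins, with neuropilins as co-receptors for most class 3 members. Ephrins and Eph receptors signal between touching cells, Slits bind Robos, and netrins bind Unc5 receptors or Dcc. Most of these pathways act on the actin cytoskeleton, and in the kidney they are known from the growth and patterning of glomerular capillaries, the ureteric bud and the podocyte slit diaphragm.

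Several facts of the data set bear on all values. Every deposited file is named for the opposite group to its sample label. Groups follow the sample labels, so if the file names were right, every sign below would turn round at the same size. Arhgef7 did not separate the groups, with 133, 89.6 and 85.9 CPM (read counts scaled to TMM-adjusted library size) in the libraries labelled KO against 91.9, 94.1 and 88.4 CPM in those labelled CTRL (log2 fold change 0.17, SE 0.17, edgeR adjusted p = 0.544). Gene counts were 40246366 to 51917945 per library labelled KO and 39841396 to 46187515 per library labelled CTRL. The summed level of 20 podocyte markers was 10347, 4593 and 3249 CPM in the libraries labelled KO, against 1690.4 to 1956 CPM in those labelled CTRL. It was 5687, 2543 and 1700.3 against 859 to 1002 CPM for 15 glomerular endothelial markers, and 2287, 820.1 and 586 against 353 to 355 CPM for 13 mesangial and smooth muscle markers. Proximal tubule markers (17 genes) ran the other way, at 17531, 26494 and 29446 CPM in the libraries labelled KO against 36577 to 38285 CPM in those labelled CTRL. Markers of leukocytes summed to 69.3 to 90.4 CPM and 76.0 to 88.2 CPM, and those of nerve and Schwann cells to 4.55 to 5.02 CPM and 4.72 to 5.83 CPM, in the libraries labelled KO and CTRL. All listed markers had counts in at least 1 library. Distal nephron markers (13 genes) summed to 4393, 6161 and 7745 CPM in the libraries labelled KO against 6729 to 8473 CPM in those labelled CTRL. KO 146 stood apart, with 11.9% of its counts on mitochondrial genes against 16.5% to 19.2% in the other 5 libraries. In bulk RNA, a different number of cells of a type and a different amount of RNA per cell cannot be told apart, and the part of these marker differences in the results below was not tested beyond the values given.

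Most members had higher levels in the libraries labelled KO, and no member passed the test. Sema3g, Epha3, Sema3e, Robo1 and Robo2 had the largest differences among members with at least 1 CPM, and Sema4d, Sema4g, Epha1, Slit2 and Sema4a the most negative. In edgeR's quasi-likelihood test with Benjamini-Hochberg adjustment over 17086 genes, 0 of the 57 members were called at an adjusted p below 0.05, where 1.01% of all tested genes were called, 0.591% higher and 0.421% lower. At an unadjusted p below 0.05, 34 members were higher and 3 lower, against 17.5% and 11.8% of all tested genes. These 34 include Efnb3 and Epha6, whose sign was tied to how they were kept. The 3 libraries labelled KO lay above the 3 labelled CTRL in 34 members (59.6%), Epha6 among them, and below them in 4 (7.02%). The corresponding shares of all tested genes were 21.9% and 19.6%. Log2 fold changes are given as labelled KO minus labelled CTRL, and their median was 0.70 over the members and -0.01 over all tested genes. It was 2.01 for podocyte markers, 1.74 for endothelial, 1.75 for mesangial and -0.55 for proximal tubule markers.

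**Figure D1:**
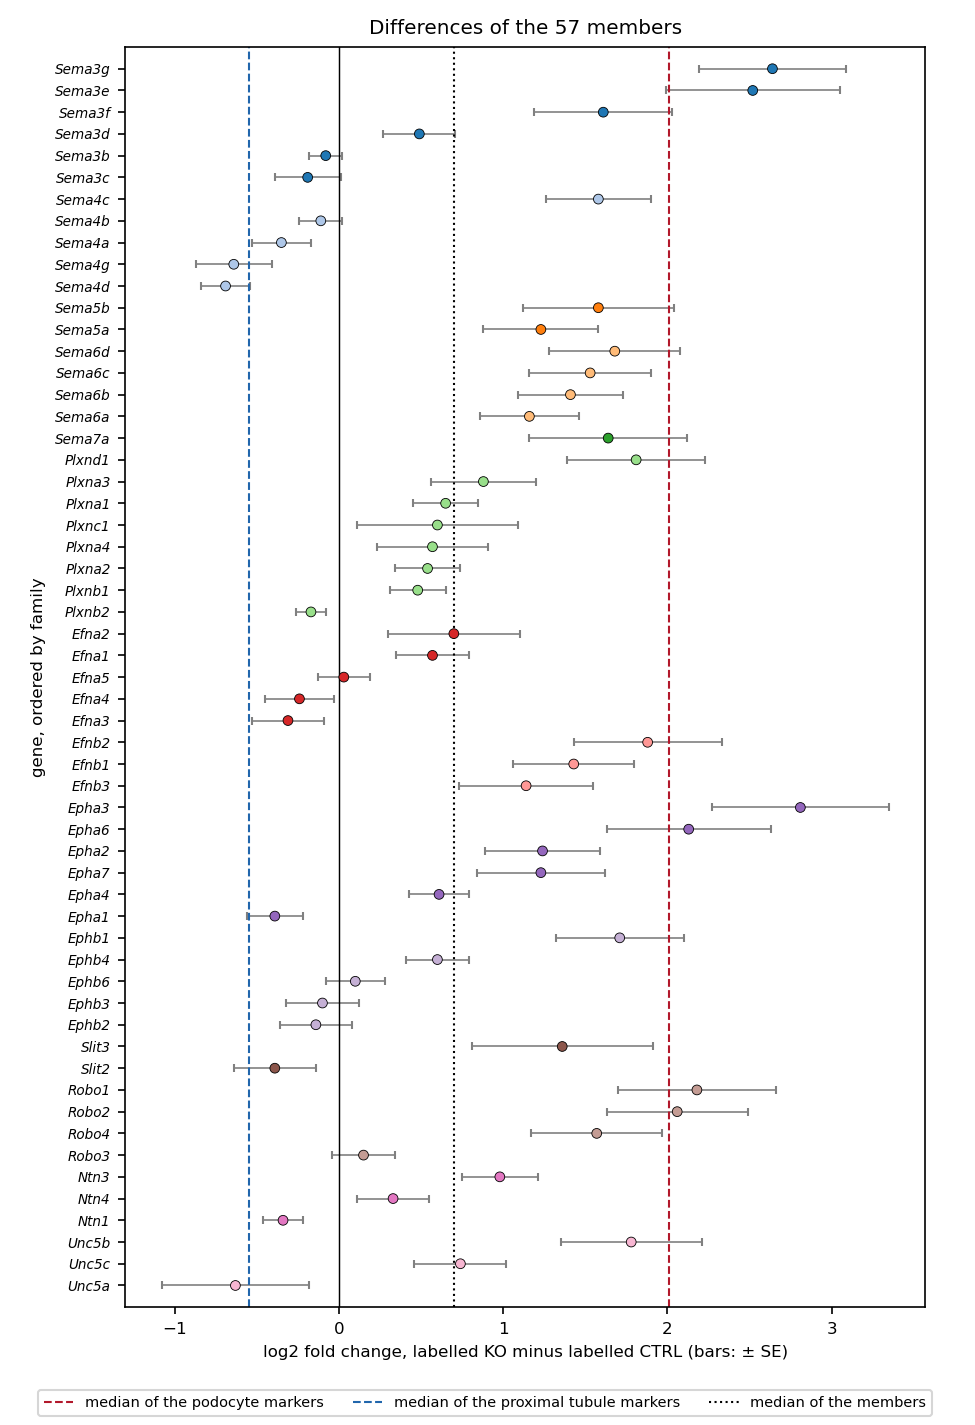
Difference of each of the 57 members on the log2 scale (labelled KO minus labelled CTRL) with its standard error as a bar (n = 3 libraries per group), ordered and coloured by family. Dashed lines mark the medians of the podocyte markers (2.01) and proximal tubule markers (-0.55), and the dotted line that of the members (0.70). Members of 1 family lie on both sides of 0 in the Sema3, Sema4, Plxn, Efna, Epha, Ephb, Slit, Ntn and Unc5 families.

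The number of members called depended on the library and the tool. Without KO 146 edgeR called 24 members higher and 3, Sema4d, Sema4g and Unc5a, lower (10.5% and 6.62% of all tested genes), and without KO 148 it called 28 higher and 3, Sema4d, Sema4g and Ntn1, lower (12.9% and 5.4%), while leaving out any other library gave 0. Over all tested genes those 4 fits called almost nothing, 0.00574% higher and 0.00574% lower without KO 147, 0.00569% and 0.00569% without CTRL 157, 0.0114% and 0.0057% without CTRL 162, and 0.0284% and 0.0284% without CTRL 163. DESeq2 called 28 members higher and 1, Sema4d, lower (11.7% and 5.65% of all genes), and limma-voom called 0 (0.433% and 0.363%). Without a filter on low counts edgeR called Epha6 and Sema6b higher and Sema4d lower (1.41% and 1.31%). Epha6 was also among the higher members called by DESeq2 and without KO 146 or KO 148, and Efnb3 among those without KO 148. With the mean of the proximal tubule markers as a covariate the members' median log2 fold change was 0.13, and edgeR called 0 (1.19% and 0.316%). That mean was 9.04, 9.6 and 9.76 log2 CPM in the libraries labelled KO against 10.15, 10.06 and 10.07 in those labelled CTRL. Since it does not overlap between the groups, the covariate and the group cannot be told apart in that fit. The covariate values below are given as description only.

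Within the libraries labelled KO, levels followed the glomerular markers in many members. In 32 of 57 members (56.1%) the order was 146 above 147 above 148, and in 11 (19.3%) it was the reverse, where 29.3% and 29.0% of all tested genes had these orders. The first order held for 19 of 20 podocyte markers and all 15 endothelial markers, and the reverse for 13 of 17 proximal tubule markers. KO 146 had the highest level of the 3 libraries labelled KO in 40 of 57 members, and in 7404 of all 17086 tested genes.

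**Figure D2:**
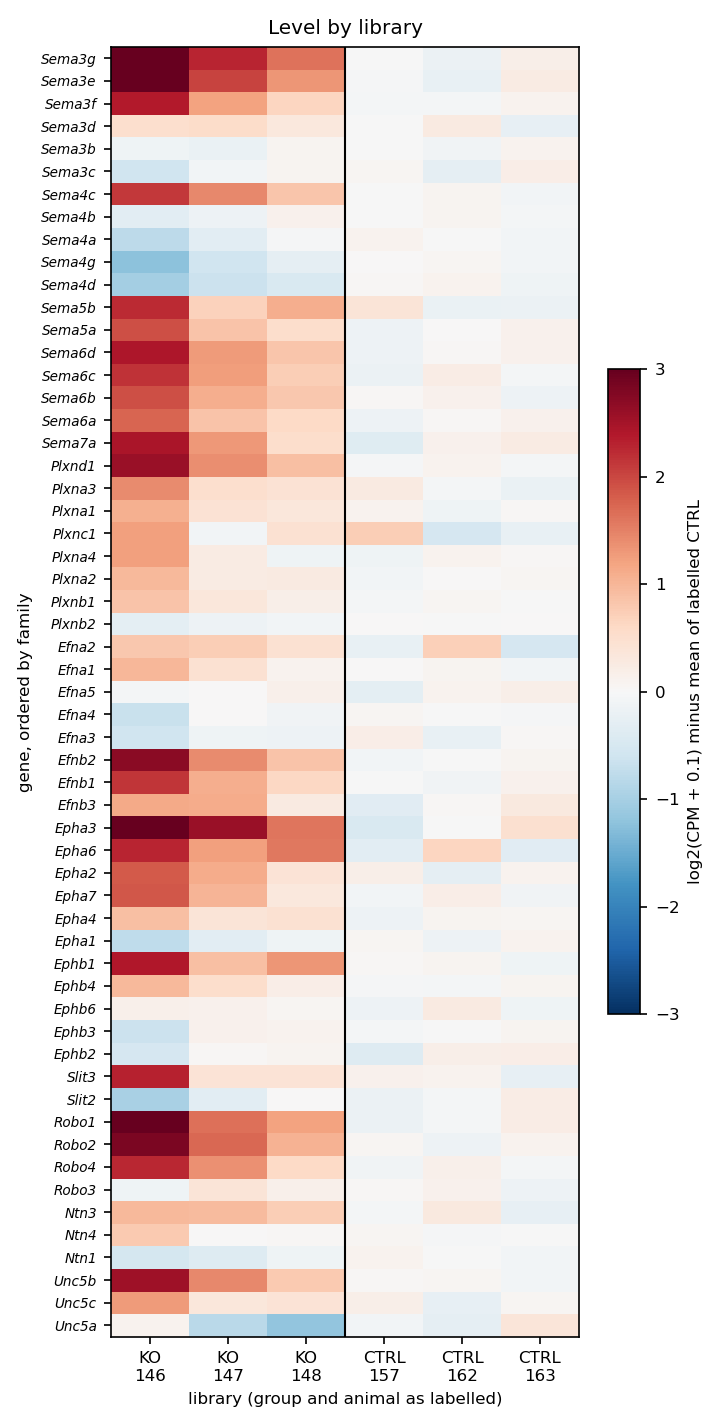
Level of each member in each library as log2(CPM + 0.1) minus the mean of the libraries labelled CTRL, with red above and blue below that mean and colours saturating at ±3. KO 146 holds the deepest red, and Sema4d, Sema4g, Slit2 and Epha1 are blue in it.

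The start regions of the members with the largest differences and a single annotated start are shown to set them beside each other. They are Epha3, Sema3g and Sema3e, with the largest positive values, and Sema4g, the most negative of those with 1 start. Each is the RefSeq sequence of 300 bases on GRCm38.p6, from 250 bases before the start, 5′ to 3′ on the strand of the gene. Capitals mark matches on either strand to the GC box GGGCGG, which reads CCGCCC on the other strand.
Epha3 (chr16:63864126-63864425, minus strand): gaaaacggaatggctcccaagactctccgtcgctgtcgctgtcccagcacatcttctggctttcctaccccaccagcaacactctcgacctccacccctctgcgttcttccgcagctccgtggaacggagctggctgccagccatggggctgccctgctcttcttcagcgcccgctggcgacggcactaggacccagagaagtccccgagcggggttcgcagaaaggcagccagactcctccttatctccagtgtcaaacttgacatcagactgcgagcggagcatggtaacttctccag
Sema3g (chr14:31217623-31217922, plus strand): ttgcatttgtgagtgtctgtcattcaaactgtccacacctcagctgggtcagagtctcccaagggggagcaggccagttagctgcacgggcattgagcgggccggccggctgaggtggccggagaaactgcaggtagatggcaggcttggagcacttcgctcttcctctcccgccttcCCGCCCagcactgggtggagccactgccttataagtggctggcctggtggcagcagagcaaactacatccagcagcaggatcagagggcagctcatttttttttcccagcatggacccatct
Sema3e (chr5:14025026-14025325, plus strand): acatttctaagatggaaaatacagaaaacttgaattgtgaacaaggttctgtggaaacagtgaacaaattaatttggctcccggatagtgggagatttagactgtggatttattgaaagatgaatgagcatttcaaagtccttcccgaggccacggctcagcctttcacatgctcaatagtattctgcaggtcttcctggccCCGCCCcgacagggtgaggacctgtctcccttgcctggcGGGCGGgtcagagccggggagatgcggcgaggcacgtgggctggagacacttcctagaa
Sema4g (chr19:44989094-44989393, plus strand): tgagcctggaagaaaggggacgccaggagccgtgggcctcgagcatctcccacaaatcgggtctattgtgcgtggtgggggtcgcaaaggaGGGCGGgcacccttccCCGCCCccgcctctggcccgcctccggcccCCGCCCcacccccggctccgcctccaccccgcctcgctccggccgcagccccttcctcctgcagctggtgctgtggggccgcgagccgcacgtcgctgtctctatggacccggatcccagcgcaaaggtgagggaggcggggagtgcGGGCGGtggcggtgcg
The Epha3 window held 18 CpG dinucleotides and no GC box, the Sema3g window 8 CpG and 1 GC box, the Sema3e window 11 CpG and 2 GC boxes, and the Sema4g window 30 CpG and 4 GC boxes. Windows were found for 50 of the 57 members, 66 windows in all. The GC box was present in 72.7% of the members' windows and 35.7% of all 32851 windows of the same length, and the median number of CpG was 19.5 and 7. TATAAA was present in 3.03% and 13.6%, TAATTA in 3.03% and 5.29%, TGCTGAC in 4.55% and 4.67%, and CAAAGTCCA in 0 of 66 and 0.475%, each searched on both strands. None of these other motifs lies in the 4 windows shown, so no match overlaps another motif.

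Among the secreted class 3 semaphorins, Sema3g had the largest difference and the highest level. Sema3g, known from podocytes and arterial endothelium, had 996, 449 and 286 CPM in the libraries labelled KO, against 91.8, 81.4 and 104 CPM in those labelled CTRL. The lowest library labelled KO was above the highest labelled CTRL, and the log2 fold change was 2.64 (SE 0.45, edgeR adjusted p = 0.0594, range over alternatives 2.8e-08 to 0.264). Its log2 fold change was 0.98 with the proximal tubule covariate and 1.98 without KO 146. Sema3e, which binds Plxnd1 without a neuropilin, had 48.5, 18.8 and 11.5 CPM in the libraries labelled KO against 4.39, 3.89 and 5.42 CPM in those labelled CTRL, again without overlap (2.52, SE 0.53, edgeR adjusted p = 0.0753). Sema3f, a ligand of Nrp2, had 111, 49.4 and 33.0 CPM in the libraries labelled KO and 20.3, 20.5 and 22.9 CPM in those labelled CTRL, with a log2 fold change of 1.61 (SE 0.42). The covariate put Sema3e at 0.54 and Sema3f at -0.04, and without KO 146 they stood at 1.72 and 0.95. Sema3d was low throughout, at 1.25 to 1.5 CPM in the libraries labelled KO and 0.813 to 1.21 CPM in those labelled CTRL.

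The remaining class 3 members had overlapping groups. Sema3c, a ligand of both neuropilins, had 28.6, 40.8 and 45.4 CPM in the libraries labelled KO and 45.2, 35.9 and 49.6 CPM in those labelled CTRL, and Sema3b had 60.7 to 73.1 CPM and 65.1 to 75.1 CPM. Their log2 fold changes were -0.19 and -0.08, with 0.05 for Sema3b when libraries were scaled by their totals. Sema3b and Sema3f lie 72.3 kb apart on chromosome 9, so a member without overlap and one with overlapping groups are near neighbours.

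**Figure D3:**
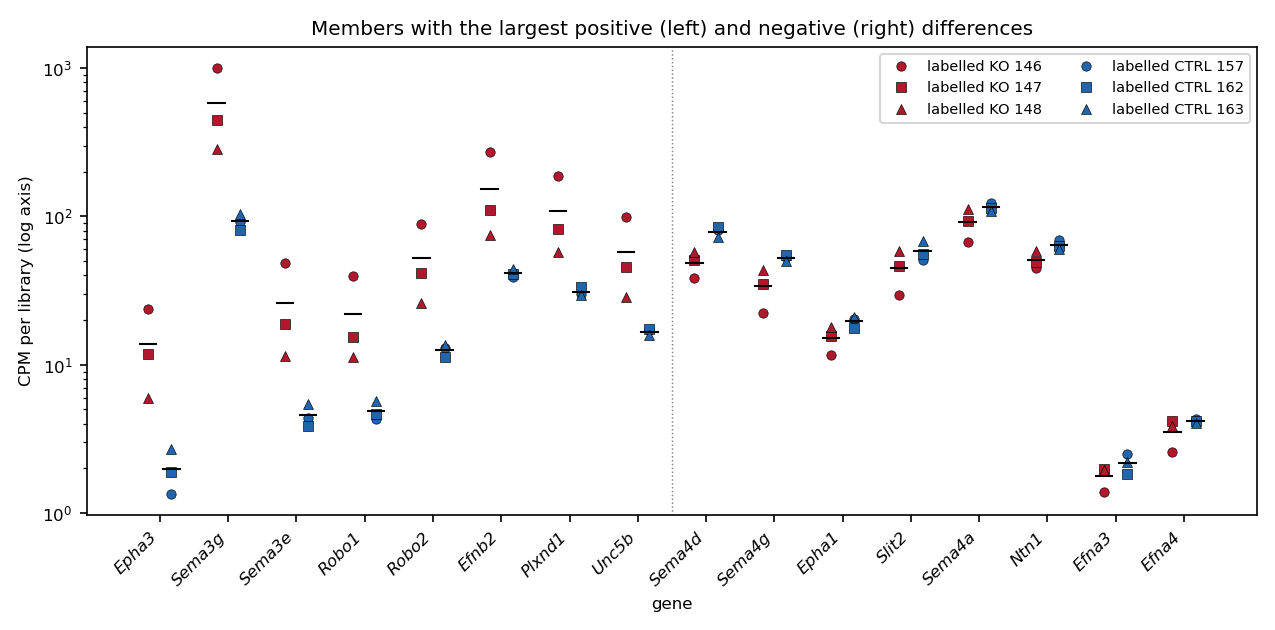
CPM on a log axis in each library for the 8 members with the largest positive (left of the dotted line) and the 8 with the largest negative (right) log2 fold change among members with at least 1 CPM in the higher group, with red for the libraries labelled KO, blue for those labelled CTRL and black bars for the group means. In all 8 genes on the left the groups do not overlap and KO 146 is highest. Of all tested genes, 21.9% had the libraries labelled KO above without overlap. On the right the groups overlap except in Sema4d, Sema4g and Ntn1.

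Among the membrane-bound semaphorins, classes 5, 6 and 7 had only positive log2 fold changes, while class 4 held both signs. All 4 class 6 members, which act on class A plexins, had higher values in every library labelled KO, as had 21.9% of all tested genes. Sema6d had 43.9, 19.7 and 14.5 CPM in the libraries labelled KO against 7.23, 8.30 and 8.83 CPM in those labelled CTRL (log2 fold change 1.68, SE 0.40). Sema6a, the member of its class with the highest level per kilobase, had 38.4, 20.6 and 17.1 CPM against 10.1, 11.7 and 12.3 CPM (1.16, SE 0.30). Sema6c and Sema6b had log2 fold changes of 1.53 and 1.41. The edgeR adjusted p of these 4 genes was 0.0755 to 0.0794. Of class 5, whose extracellular part carries thrombospondin repeats, Sema5a had 244, 116 and 92.0 CPM in the libraries labelled KO against 57.7, 64.4 and 70.4 CPM in those labelled CTRL (1.23, SE 0.35). Sema5b averaged 2.69 ± 1.64 CPM in the libraries labelled KO and 0.905 ± 0.243 CPM in those labelled CTRL (SD, n = 3 each). Sema7a, the GPI-anchored semaphorin, had 50.6, 22.7 and 13.3 CPM in the libraries labelled KO against 7.13, 9.93 and 10.8 CPM in those labelled CTRL (1.64, SE 0.48). These values also moved with the proximal tubule covariate, to 0.15 for Sema6d, 0.04 for Sema6a, 0.19 for Sema6c, 0.33 for Sema6b, -0.12 for Sema5a, 0.29 for Sema5b and -0.16 for Sema7a. Without KO 146 the same 7 genes stood at 0.69 to 1.07.

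In class 4, 4 of the 5 members had negative log2 fold changes, of which Sema4a and Sema4b had overlapping groups. With the proximal tubule covariate Sema4d stayed negative at -0.23, while Sema4g stood at 0.11, Sema4a at 0.25, Sema4b at 0.21 and Sema4c at 0.46. Sema4d, a ligand of Plxnb1 first known from lymphocytes, had 38.5, 50.6 and 57.4 CPM in the libraries labelled KO against 80.4, 84.3 and 72.1 CPM in those labelled CTRL. Every library labelled KO was below every library labelled CTRL, with a log2 fold change of -0.69 (SE 0.15, edgeR adjusted p = 0.0755, range over alternatives 0.00221 to 0.367). Sema4g had 22.4, 35.0 and 43.8 CPM in the libraries labelled KO against 53.4, 54.9 and 49.7 CPM in those labelled CTRL, also without overlap (-0.64, SE 0.23, edgeR adjusted p = 0.125, and -0.42 without KO 146). Sema4a, a class 4 ligand studied in immune cells and vessels, had 67.2, 92.7 and 113 CPM in the libraries labelled KO against 123, 114 and 109 CPM in those labelled CTRL, where the groups overlapped (-0.35, SE 0.18). In all 3 genes KO 146 had the lowest level. That library had the lowest sum of proximal tubule markers and the highest sums of glomerular markers, and a link to either was not tested. Sema4b overlapped between the groups, at 21.9 to 29.99 CPM in the libraries labelled KO and 26.4 to 29.1 CPM in those labelled CTRL (-0.11, and 0.02 when libraries were scaled by their totals). Sema4c, a ligand of Plxnb2, had 21.2, 13.1 and 8.52 CPM in the libraries labelled KO and 4.74, 5.07 and 4.52 CPM in those labelled CTRL (1.58, SE 0.32, edgeR adjusted p = 0.0731). Its exons overlap a transcript on the opposite strand by 334 bases, and whether the counting used strand is not stated in the sources at hand. The same limit holds for Plxna1 (970 bases), Plxnb1 (257), Ephb1 (152), Ntn3 (139), Unc5c (118), Plxna4 (110), Epha6 (107), Unc5a (34) and Ephb4 (33). On the same strand, Plxnc1 and Sema4a share 115 and 73 bases with another gene.

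Plexins, the semaphorin receptors, held the member with the highest level per kilobase in the libraries labelled CTRL. Plxnb2 had 34.3 CPM per kilobase of exon as a mean of the libraries labelled KO and 38.6 in those labelled CTRL. In CPM it stood at 245, 268 and 280.1 in the libraries labelled KO and 299, 294 and 302 in those labelled CTRL, below in every library by a small step (log2 fold change -0.17, SE 0.092, edgeR adjusted p = 0.258). Plxnd1, the endothelial receptor of Sema3e, had 186, 81.8 and 57.5 CPM in the libraries labelled KO against 30.04, 33.2 and 29.4 CPM in those labelled CTRL. Its groups did not overlap, with a log2 fold change of 1.81 (SE 0.42, edgeR adjusted p = 0.0755), which was 0.20 with the covariate and 1.16 without KO 146. The ligand Sema3e and its receptor Plxnd1 both had their highest level in KO 146 and their lowest levels in the libraries labelled CTRL. That was not particular to the pair, since KO 146 was the highest library labelled KO in 40 of the 57 members and in all 15 endothelial markers. Plxnb1, a receptor of Sema4d, had 105, 73.5 and 65.7 CPM in the libraries labelled KO and 56.1, 60.7 and 58.0 CPM in those labelled CTRL (0.48, SE 0.17). Its value was -0.13 with the proximal tubule covariate, the same sign as that of Sema4d in that fit. The class A plexins had log2 fold changes of 0.54 to 0.88, with overlapping groups in Plxna4. Plxnc1, the receptor of Sema7a, was low at 0.628 to 1.71 CPM in the libraries labelled KO and 0.446 to 1.19 CPM in those labelled CTRL.

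**Figure D4:**
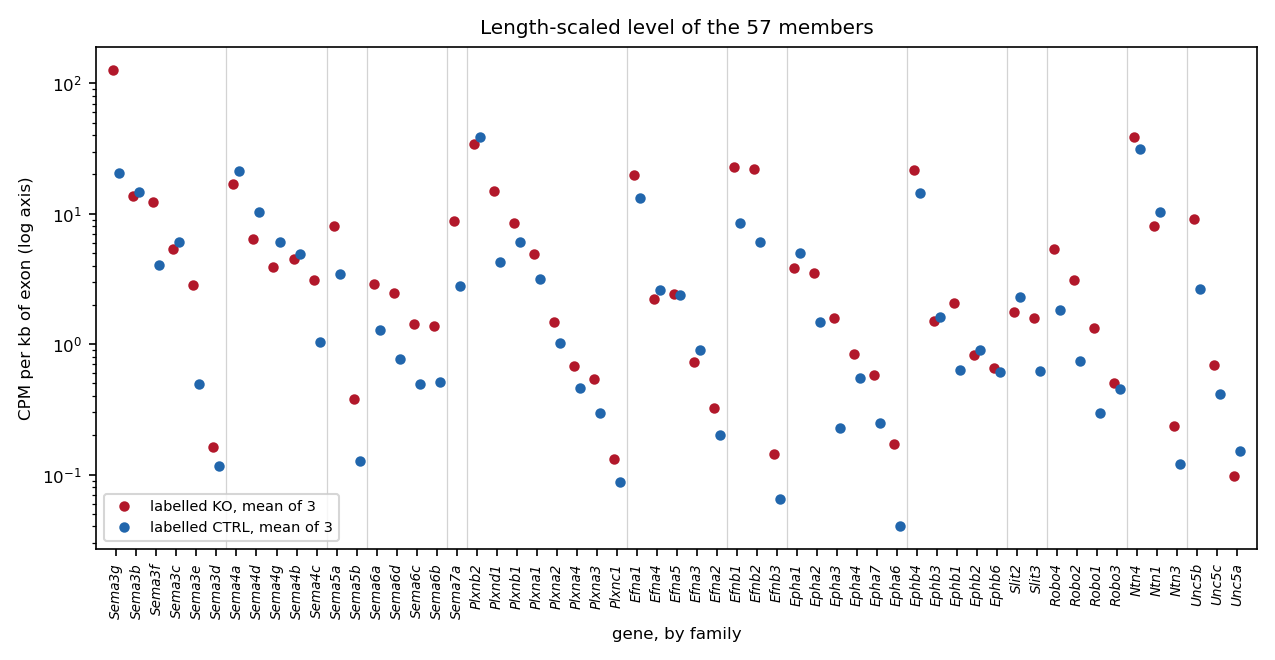
Mean level of each member in CPM per kilobase of exon on a log axis, red for the libraries labelled KO and blue for those labelled CTRL (mean of 3 each), ordered by family and then by level. Sema3g reaches 127 in the libraries labelled KO against 20.4 in those labelled CTRL, while Plxnb2 and Ntn4 lie above 30 in both.

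In length-scaled level, 4 genes led in the libraries labelled CTRL, Plxnb2 at 38.6, Ntn4 at 31.2, Sema4a at 21.3 and Sema3g at 20.4 CPM per kilobase, and the last pair overlapped across single libraries. Sema3g was first in each library labelled KO, at 219, 98.9 and 63.1 CPM per kilobase, and the genes after it differed between these libraries. Ntn4 at 54.1 and Efnb2 at 39.5 came next in KO 146, while Plxnb2 came next at 34.7 in KO 147 and 36.3 in KO 148, followed by Ntn4 at 31.5 and 31.8 CPM per kilobase. At the other end Unc5a, Plxnc1, Efnb3 and Epha6 averaged 0.125 or less over all 6 libraries.

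Ephrin-B ligands and A-type Eph receptors held most of the differences in the ephrin system. Efnb2, the ephrin of arterial endothelium, had 270.4, 111 and 75 CPM in the libraries labelled KO against 39.0, 40.9 and 44.0 CPM in those labelled CTRL. Efnb1, an ephrin that in mice binds nephrin at the podocyte slit diaphragm, had 129.9, 62.6 and 45.2 CPM in the libraries labelled KO against 28.8, 27.3 and 31.8 CPM in those labelled CTRL. Neither gene overlapped between the groups, with log2 fold changes of 1.88 (SE 0.45) and 1.43 (SE 0.37) and edgeR adjusted p values of 0.0760 and 0.0792. The proximal tubule covariate left 0.11 for Efnb2 and 0.02 for Efnb1, and without KO 146 they stood at 1.17 and 0.87. Ephb4, the venous receptor of Efnb2, had 130.4, 95.4 and 76.6 CPM in the libraries labelled KO and 65.3, 63.6 and 70.7 CPM in those labelled CTRL, a smaller difference (0.60, SE 0.19, and -0.05 with the covariate or 0.36 without KO 146). Ephb1 had 23.7, 8.30 and 11.2 CPM in the libraries labelled KO against 4.53, 4.70 and 4.02 CPM in those labelled CTRL (1.71, SE 0.39, edgeR adjusted p = 0.0755), and stood at 0.50 with the covariate and 1.14 without KO 146. The other B receptors overlapped, with log2 fold changes of -0.14 for Ephb2, -0.10 for Ephb3 and 0.10 for the kinase-dead Ephb6. Ephb3 was at 0.02 when libraries were scaled by their totals, and Ephb2 and Ephb3 were at 0.02 and 0.11 without KO 146.

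Among the A receptors, Epha3 had the largest difference of all members. It was counted at 23.6, 11.9 and 5.96 CPM in the libraries labelled KO against 1.35, 1.89 and 2.69 CPM in those labelled CTRL. The groups were apart, and the log2 fold change was 2.81 (SE 0.54, edgeR adjusted p = 0.0704, range over alternatives 1.01e-06 to 0.307). It was 1.05 with the proximal tubule covariate. Epha6 was near the count limit and kept only through the libraries labelled KO, with 80, 25 and 36 raw counts in the libraries labelled KO and 6, 14 and 6 in those labelled CTRL (2.13, SE 0.50). Epha2, an epithelial receptor of Efna1, averaged 16.4 ± 7.93 CPM in the libraries labelled KO and 6.94 ± 1.13 CPM in those labelled CTRL (SD, n = 3 each). Epha2, Epha7 and Epha4 had log2 fold changes of 1.24, 1.23 and 0.61, which were 0.04, -0.13 and 0.13 with the covariate and 0.79, 0.73 and 0.42 without KO 146. Epha1, an epithelial Eph receptor and the A receptor with the highest level per kilobase, had 11.6, 15.6 and 17.9 CPM in the libraries labelled KO and 20.4, 17.6 and 21.0 CPM in those labelled CTRL. Its groups overlapped (-0.39, SE 0.17, edgeR adjusted p = 0.184, and 0.12 with the covariate), and its exons share 236 bases with Zyx on the opposite strand.

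The GPI-anchored ephrin-A ligands mostly had overlapping groups. Efna1, the most abundant of them per kilobase, had 48.6, 33.4 and 25.9 CPM in the libraries labelled KO and 24.3, 25.4 and 22.9 CPM in those labelled CTRL (log2 fold change 0.57, SE 0.22, edgeR adjusted p = 0.145), and was the only ephrin-A without overlap. Its value was -0.21 with the proximal tubule covariate. Efna3 and Efna4, its neighbours on chromosome 3 within 32.8 and 10.4 kb of the next gene, were at -0.31 and -0.24, and both have an overlapping antisense transcript. Efna5 averaged 9.77 ± 0.726 CPM in the libraries labelled KO and 9.59 ± 1.66 CPM in those labelled CTRL (SD, n = 3 each). Efna2 and the low ephrin-B Efnb3 overlapped between the groups.

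In the Slit and Robo system, 3 of the 4 Robo receptors had every library labelled KO above those labelled CTRL, as had 21.9% of all tested genes. Robo2, which in mouse podocytes joins nephrin through the adaptor Nck, had 89.3, 41.6 and 25.9 CPM in the libraries labelled KO against 13, 11.2 and 13.5 CPM in those labelled CTRL. Robo1 had 39.6, 15.3 and 11.3 CPM in the libraries labelled KO against 4.28, 4.65 and 5.67 CPM in those labelled CTRL. These 2 genes lie 846 kb apart on chromosome 16 and had similar log2 fold changes of 2.06 (SE 0.43) and 2.18 (SE 0.48), each with an edgeR adjusted p of 0.0753. Both moved with the proximal tubule covariate, to 0.43 for Robo2 and 0.40 for Robo1, and stood at 1.42 and 1.44 without KO 146. Robo4, the Robo of endothelial cells, had 46.5, 24.8 and 14.5 CPM in the libraries labelled KO against 8.90, 10.7 and 9.29 CPM in those labelled CTRL (1.57, SE 0.40, and 0.08 with the covariate or 1.02 without KO 146). Robo3, whose gene lies 0.554 kb from Robo4, overlapped between the groups at 2.81 to 4.10 CPM and 2.76 to 3.39 CPM in the libraries labelled KO and CTRL (0.15, SE 0.19). Slit2, the Slit with the highest level per kilobase, had 29.3, 46.4 and 58.2 CPM in the libraries labelled KO and 51.1, 55.8 and 68.0 CPM in those labelled CTRL, with overlapping groups (-0.39, SE 0.25, edgeR adjusted p = 0.334, and 0.35 with the covariate). Slit3 rested on KO 146, with 19.1, 5.04 and 5.02 CPM in the libraries labelled KO against 4.16, 4.07 and 3.19 CPM in those labelled CTRL. Its log2 fold change was 1.36 (SE 0.55) with all libraries, 0.40 without KO 146 and -0.71 with the covariate.

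Netrins and their receptors also had values of both signs. Ntn1, the secreted netrin that binds Unc5b, had 44.8, 49.1 and 58.7 CPM in the libraries labelled KO against 69.3, 63.6 and 60.6 CPM in those labelled CTRL, without overlap (log2 fold change -0.34, SE 0.12, edgeR adjusted p = 0.119, and -0.04 with the proximal tubule covariate). Unc5b, the Unc5 receptor of endothelial cells, had 98.5, 45.3 and 28.7 CPM in the libraries labelled KO against 17.1, 17.3 and 15.8 CPM in those labelled CTRL, in the other direction (1.78, SE 0.43, edgeR adjusted p = 0.0757), with 0.15 under the covariate and 1.14 without KO 146. Ntn4, a netrin of basement membranes, had 202, 118 and 119 CPM in the libraries labelled KO and 121, 114 and 116 CPM in those labelled CTRL. Only KO 146 was apart, and the log2 fold change of Ntn4 was 0.33 (SE 0.22) with all libraries and 0.01 without KO 146. Unc5c had a log2 fold change of 0.74 (SE 0.28), which was -0.12 with the covariate and 0.36 without KO 146. Ntn3 was at 1.08 to 1.29 CPM in the libraries labelled KO and 0.497 to 0.762 CPM in those labelled CTRL, and its exons overlap Tbc1d24 on the same strand by 89 bases. Unc5a was at 0.22 to 0.678 CPM in the libraries labelled KO and 0.499 to 0.836 CPM in those labelled CTRL.

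The count rule set 9 genes aside. Just inside it were Efnb3, with 33, 23 and 12 counts in the libraries labelled KO and 6, 8 and 12 in those labelled CTRL, and Epha6. Just outside were Sema3a, with 24, 25 and 9 against 3, 7 and 6 counts, Plxnb3, with 25, 11 and 6 against 7, 5 and 4 counts, and Slit1, with 2, 8 and 12 against 4, 9 and 10 counts, in the libraries labelled KO and CTRL. Unc5d had 2 to 11 counts per library and Sema4f 1 to 7. Epha5, Epha8, Epha10 and Ntn5 had 5 or fewer.

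Co-receptors and signalling partners of the members were read from 3 further lists, chosen with earlier results of these data known. Of their 64 genes, 61 were tested. The median log2 fold change of these genes was 0.34, with 49 (80.3%) above 0, where 49.3% of all tested genes were. Ncam1, an adhesion molecule of neural and renal cells, was the only one called by edgeR (1.01% of all tested genes). It rose to 14.6, 16.3 and 13.5 CPM in the libraries labelled KO, against 5.39, 5.83 and 7.18 CPM in those labelled CTRL (log2 fold change 1.27, SE 0.15, edgeR adjusted p = 0.0311, range over alternatives 1.77e-10 to 0.178). It did not follow the order of the glomerular markers. Its value was 1.22 with the proximal tubule covariate, which cannot be told apart from the group in that fit. The call was lost without KO 147 or without any 1 of the libraries labelled CTRL, at adjusted p values of 0.123 to 0.178. At an unadjusted p below 0.05, 28 of the 61 were higher and 3 lower (17.5% and 11.8% of all tested genes). DESeq2 called 19 higher and 1 lower (11.7% and 5.65%), and limma-voom 1 higher (0.433%).

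Nrp1, the neuropilin that serves class 3 semaphorins and VEGF, had 523, 239.9 and 172 CPM in the libraries labelled KO against 83.7, 104 and 106 CPM in those labelled CTRL (log2 fold change 1.67, SE 0.40, edgeR adjusted p = 0.0760). Flrt2, a ligand of Unc5 receptors, had 25.1, 11.3 and 9.11 CPM in the libraries labelled KO against 4.14, 4.62 and 4.56 CPM in those labelled CTRL (1.77, SE 0.38). Gpc1, a heparan sulfate proteoglycan that binds Slit, had 58.9, 41.6 and 34.3 CPM in the libraries labelled KO against 23.5, 25.6 and 25.2 CPM in those labelled CTRL (0.86, SE 0.19). Evl, an actin regulator of the Ena/VASP family, had 29.3, 25.4 and 19.7 CPM in the libraries labelled KO against 14.0, 13.8 and 13.9 CPM in those labelled CTRL (0.84, SE 0.15, edgeR adjusted p = 0.0624). In these 4 genes, picked for small p, every library labelled KO was above those labelled CTRL, as in 21.9% of all tested genes. The covariate put Nrp1 at 0.13, Flrt2 at 0.35, Gpc1 at 0.17 and Evl at 0.40. Dcc, the other main netrin receptor, had at most 0.0241 CPM in any library and was not tested.

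Set against the glomerular markers within each library, 6 members were higher in all 3 libraries labelled KO than in any labelled CTRL. This measure, the log2 CPM of a member minus the mean log2 CPM of the 48 podocyte, endothelial and mesangial markers, was chosen after the data were seen. The marker mean was 7.84, 6.59 and 6.10 in the libraries labelled KO against 5.29, 5.28 and 5.40 in those labelled CTRL. The 6 members, 10.5% of the 57 where 1.14% of all tested genes were placed so, were Epha3, Sema3g, Sema3e, Robo1, Robo2 and Efnb2. Among members with at least 1 CPM these were also the 6 with the largest log2 fold changes, so this placing is not separate from that ranking. Sema3g lay 2.12, 2.22 and 2.06 log2 units above the marker mean in the libraries labelled KO, against 1.23, 1.06 and 1.31 in those labelled CTRL. Its difference between the groups was 0.94. Epha3 lay at -3.27, -3.01 and -3.51 in the libraries labelled KO against -4.81, -4.33 and -3.95 in those labelled CTRL, a difference of 1.10. The differences were 0.74 for Sema3e, 0.45 for Robo1, 0.35 for Robo2 and 0.15 for Efnb2. With 3 libraries per group an exact permutation test cannot go below p = 0.1, so none was run. Against the podocyte list alone the first 5 were still without overlap, with differences of 1.08, 0.92, 0.73, 0.43 and 0.33, while Efnb2 overlapped. The podocyte markers differed among themselves, with log2 fold changes of 1.4 at the lower and 2.1 at the upper quartile. Robo2 at 2.06 and Efnb2 at 1.88 lay within that span, and Robo1 at 2.18 just above it. Among the other members, Plxnd1, Unc5b, Sema6d, Sema7a and Robo4 had differences of 0.11, 0.07, 0.00, -0.08 and -0.11 with overlapping groups, and 34 members were lower in all libraries labelled KO, where 86.3% of all tested genes were.

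**Figure D5:**
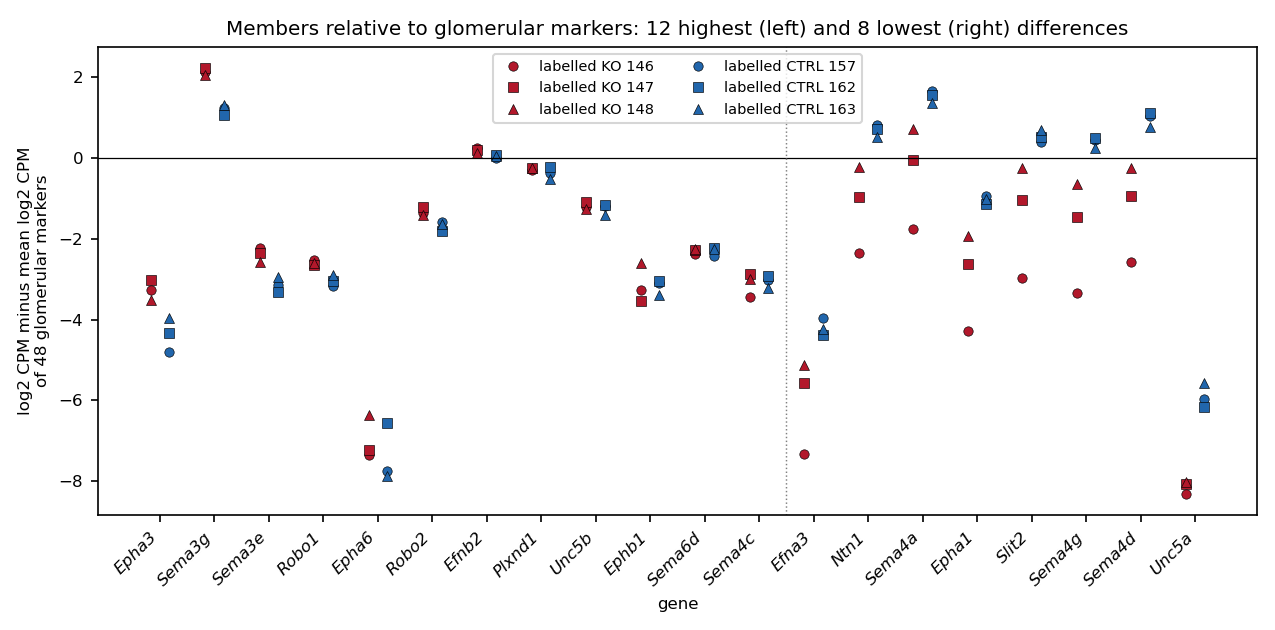
Log2 CPM minus the mean log2 CPM of 48 glomerular markers in each library, for the 12 members with the highest (left of the dotted line) and the 8 with the lowest (right) difference between the groups, with red for the libraries labelled KO and blue for those labelled CTRL. Sema3g lies between 2.06 and 2.22 in the 3 libraries labelled KO and between 1.06 and 1.31 in those labelled CTRL, while Sema4d, Slit2 and Sema4a spread widely over the libraries labelled KO.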

How the data were processed

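RNA of glomeruli from 6 mice, 3 labelled KO and 3 labelled CTRL, was sequenced. The authors deposited raw read counts per mouse Ensembl gene, 1 table per library with 54838 identifiers and no normalization. The submitters' processing notes list HTSeq 0.11.1, STAR 2.6.0, fastp 0.19.5 and DESeq2 without their roles, and name GRCh37, a human assembly, as the build. Annotation and strand setting were not given in the sources. Closing lines that name no gene held 28.5% to 35.1% of each table's total and were left out. Most of this was reads without a unique alignment, at 22.5% to 29.6% of the same total. Gene names, positions and exon lengths came from GENCODE M21 (GRCm38), which named 54809 identifiers and left 29 unnamed. Total counts were 39841396 to 51917945 per library, and the p-values weigh the group difference against the spread between these mice.

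Counts were tested in R 4.3.3 with edgeR 4.0.16 (TMM, filterByExpr with a minimum count of 10, robust quasi-likelihood F test, labelled KO minus labelled CTRL, Benjamini-Hochberg adjustment, threshold 0.05). DESeq2 1.42.0, limma-voom (limma 3.58.1), other scalings and filters, a proximal tubule covariate and leaving out each library were alternatives. All 3 tools were tested on simulated counts with the same dispersion for every gene. These lacked the marker differences between libraries seen here, so they do not show how the tools perform on these data. Log2 marker means used a prior count of 2. Pairs of libraries within a group differed far beyond counting error. The chi-square per degree of freedom was 16.7 to 18.4 between libraries labelled CTRL and 27.1 between KO 147 and KO 148. It was 176 between KO 146 and KO 147 and 299 between KO 146 and KO 148. Members and lists were chosen with earlier results of these data known. The genes described in full were the 8 largest positive and 8 largest negative members with at least 1 CPM, the member of each family with the highest level per kilobase, and the called and 5 smallest-p genes of the pathway lists. Other members are named so that all are accounted for, with values of the same fits.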

Additional observations from a re-analysis of the deposited data

How the results depend on the processing

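With all genes called counted first, then the 57 members and then the pathway lists, edgeR called 173 (101 higher, 72 lower), 0 and 1 genes. DESeq2 called 2959 (1993 higher, 966 lower), 29 (28 and 1) and 20 (19 and 1). Without a filter edgeR called 960 (497 and 463), 3 (2 and 1) and 5 (4 and 1). With the proximal tubule covariate it called 257 (203 and 54), 0 and 1. Leaving out 1 library gave 2 to 3211 calls over all genes (1 to 2266 higher, 1 to 1147 lower), 0 to 31 members (0 to 28 higher, 0 to 3 lower) and 0 to 24 pathway genes (0 to 23 higher, 0 to 1 lower). The cause was not tested. RLE factors, the count rule as the filter and limma-voom kept all 62 named genes on the same side of 0 and of the threshold. Scaling by library totals put the median of all genes at 0.132 (TMM -0.006), split the calls into 114 higher and 50 lower, and turned the sign of Ephb3 (0.02), Sema3b (0.05) and Sema4b (0.02). The proximal tubule covariate turned that of 26 members, to Sema4g 0.11, Epha1 0.12, Slit2 0.35, Sema4a 0.25, Efna3 0.17, Efna4 0.32, Efna1 -0.21, Ephb4 -0.05, Ntn4 -0.42, Sema5a -0.12, Sema7a -0.16, Epha7 -0.13, Ephb2 0.31, Ephb3 0.57, Plxna1 -0.04, Plxna2 -0.15, Plxna3 -0.09, Plxna4 -0.72, Plxnb1 -0.13, Plxnc1 -0.29, Sema3b 0.03, Sema3c 0.38, Sema3f -0.04, Sema4b 0.21, Slit3 -0.71, Unc5c -0.12. With 1 library left out, Efna5 ranged from -0.11 (without CTRL 157) to 0.12, with -0.04 without KO 148. Ephb2 ranged from -0.31 to 0.02 and Ephb3 from -0.23 to 0.11, each highest without KO 146. No paired analysis was possible because the groups share no replicate number. Members under 1 CPM rest on few counts and their fold changes are the least certain.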
